A study of Mus musculus with 4 samples.

Results

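The genes described here encode the amyloid precursor protein and its relatives, presenilin 2, the prion protein, cystatin C and progranulin, measured in the dentate gyrus of control mice. They were taken by name from a list of 8 genes, as every probe set that the array annotation assigns to exactly 1 of them. The annotation used here held 10 such probe sets of 7 genes, among 12422 probe sets and 8251 singly named genes in all, and Bace1 (beta-secretase) was not analysed here. Total RNA came from hippocampal dentate gyrus of C57BL/6J mice, young males that an experimenter had handled and that were otherwise untreated. RNA was taken 1, 2, 4 and 6 h after the last shock given to the experimental mice of the same study, which were not analysed here. Each hour had 1 single-channel array, so the 4 arrays are 4 handled controls that differ in the labels only by the hour. Whether an RNA came from 1 animal or from several is not stated in the labels, so p-values measure only the spread between these samples.

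Amyloid precursor protein is a membrane protein of neurons that is cut in steps. Alpha- or beta-secretase first sheds its outer part, and gamma-secretase, whose catalytic subunit is a presenilin, then cuts the stub within the membrane and can release amyloid beta. Prion protein is a cell-surface glycoprotein abundant on neurons, whose misfolded form causes prion disease. Cystatin C is a secreted inhibitor of cysteine cathepsins that also binds amyloid beta, and progranulin is a secreted growth factor and lysosomal protein, made by microglia and neurons, whose partial loss causes frontotemporal dementia in people.

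The 1 h array stood apart from the other 3, and the members' ranges and slopes are therefore also given without it where it moved them most. In the control transcript Gapdh the intensity of the 3' probe set was 4.88 times that of the 5' probe set at 1 h, and 1.13, 1.33 and 1.24 times at 2, 4 and 6 h. The beta-actin ratio differed less, at 2.51, 1.83, 2.2 and 1.97. The 6 probe sets that carry the sense strand of Gapdh and beta-actin were all brightest at 1 h, with a mean intensity of 414, against 221, 240 and 199 later. Neuronal RNA was present in each array, as shown by Snap25, a protein of synaptic vesicle fusion (intensity 19753 ± 1702, SD, n = 4). The neuron markers (7 of 8 on the table) had summed intensities of 48159, 47936, 45135 and 49106 at 1, 2, 4 and 6 h. Of their 8 tested probe sets, 5 were lower at 1 h than later on average and 3, with Snap25, were higher. Of 10 granule cell markers, 6 were on the table and all 6 were bright enough to be tested, with a summed intensity of 6730 to 7720. Among them were Calb1 (calbindin), at 2196 ± 178 (SD, n = 4), and Prox1, the granule cell transcription factor, at 71.6, 278, 155 and 232 at 1, 2, 4 and 6 h. In tissue samples like these, fewer cells of a type and less RNA per cell cannot be told apart.

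Across the members, the 3 brightest probe sets, those of App, Prnp and Cst3, lay at the 99.9th percentile of all probe sets. Their ranges between arrays were 1.04-fold, 1.33-fold and 1.24-fold. Among tested probe sets of like brightness their SDs lay at the 0.67th, 64.6th and 45.4th percentiles, so of these 3 only App was even for its brightness. Of the dimmer members, Psen2 and the brighter Grn probe set also had low SDs for their brightness, at percentiles 5.5 and 8.72. Of the 3 tested probe sets that varied at least 2-fold, 2 were second, dimmer probe sets of their genes. Values are intensities on the authors' linear scale, floored at 16.4 before log2 was taken. Testing was limited to probe sets whose mean log2 value was at or above the 40th percentile of all, which 8 of the 10 member probe sets were. In limma, 0 of these 8 had a slope over the hours with an adjusted p under 0.05, and 1 had an unadjusted p under 0.05. Of all 7453 probe sets tested, 1 passed (0.0134%), and 4.4% had an unadjusted p under 0.05. The highest array was at least 2-fold above the lowest in 3 of the 8 (18.5% of all tested), namely the brighter probe set of Aplp2, the dimmer one of Cst3 and the dimmer one of Grn. Among the same tested probe sets, without the 1 h array, the Grn probe set was the only 1 of the 3 that still spanned 2-fold (8.22% of all tested). The 1 h array was the highest of the 4 in 5 of the 8 and the lowest in 3, which was so in 35.4% and 30.4% of all tested. Against the mean of the other arrays it was at least 2-fold higher in 2 (1.8% of all tested) and lower in 1 (5.29%).

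**Figure D1:**
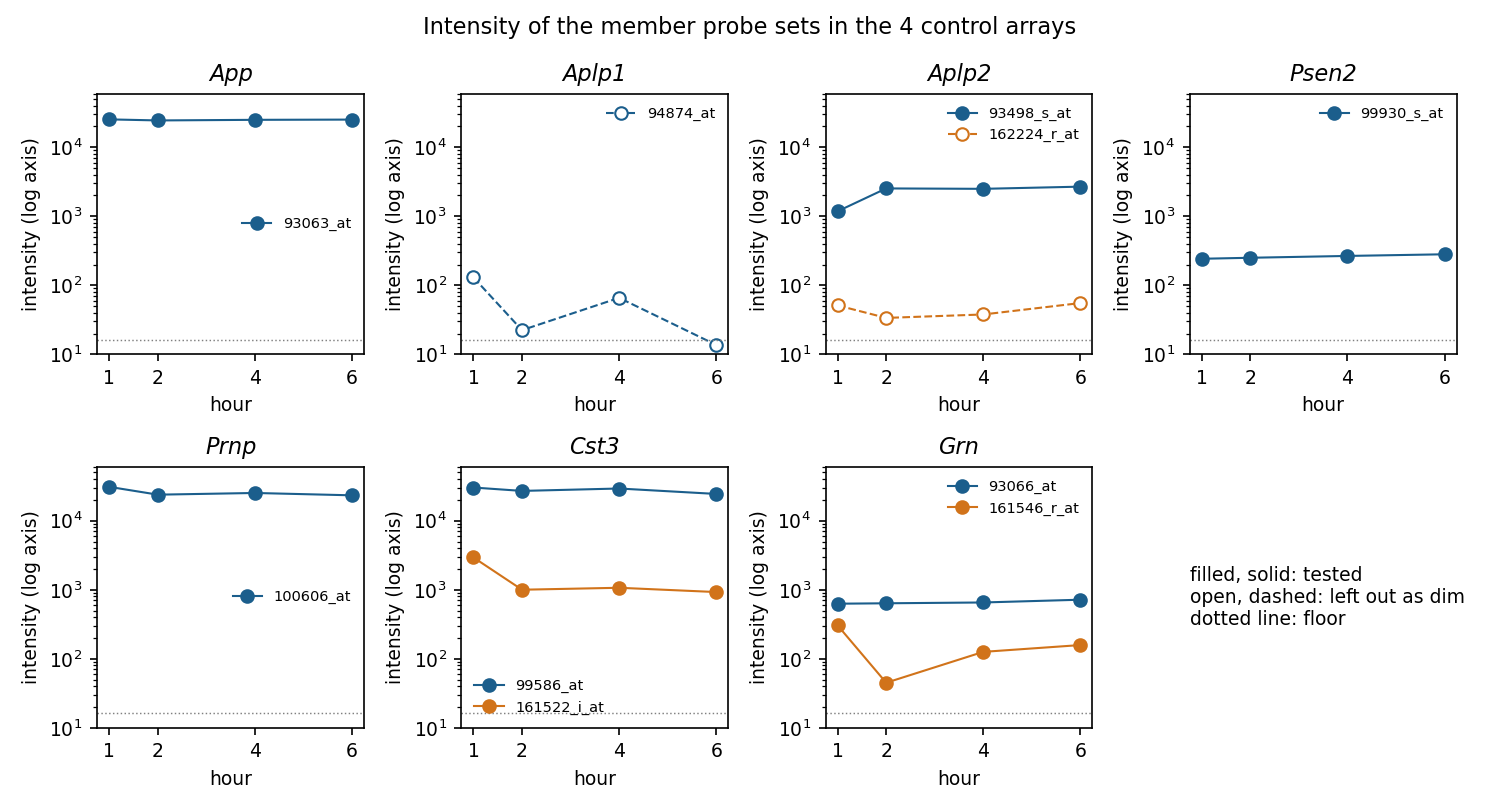
Intensity of each member probe set (log axis) against the hour of the array, 1 point per array and 1 panel per gene, with filled points for tested probe sets, open points for those left out as dim and a dotted line at the floor of 16.4. App lies level near its mean of 24950 in all 4 arrays, Aplp2 is lower at 1 h than later on its brighter probe set, and the dimmer probe sets of Cst3 and Grn are highest at 1 h.

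App, the amyloid precursor itself, gave an intensity of 25310, 24430, 24932 and 25129 at 1, 2, 4 and 6 h. The 4 arrays therefore lay within 1.04-fold of each other, with a mean of 24950 ± 380 (SD, n = 4). Its SD between arrays, 0.02 on the log2 scale, was at or above that of 0.242% of all tested probe sets and of 0.67% of the 746 in its brightness class, 1 of 10 classes of equal size. This evenness depends in part on the scaling of the arrays: the range was 1.11-fold when arrays were scaled to the same median and 1.08-fold after quantile normalization, with SDs at the 2.88th and 2.11th percentiles. The slope was 0.001 log2 units per hour (95% interval -0.081 to 0.084, limma adjusted p = 0.996). Its sign changed with the settings, so no direction is given.

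Aplp2 and Aplp1 encode the amyloid precursor-like proteins, which are cut by the same secretases as App but do not contain the amyloid beta sequence. The brighter Aplp2 probe set read 1181 at 1 h, then 2530, 2496 and 2685. The 1 h value lay below all 3 others, which sat close together at 2570 ± 101 (SD, n = 3). Relative to 1 h it was 2.14-fold higher at 2 h, 2.11-fold at 4 h and 2.27-fold at 6 h. Across all tested probe sets, 6.35%, 5.68% and 5.69% were at least 2-fold higher than at 1 h at these hours. Its slope, 0.183 ± 0.078 (SE) log2 units per hour, did not pass (limma adjusted p = 0.874, 4 arrays). Without the 1 h array the slope was 0.021 ± 0.039 (SE, limma adjusted p = 0.999) and the range 1.08-fold. The identifier ends in _s_at, which marks probes that can match more than 1 transcript, so these levels are less certain. The Gapdh ratio of 4.88 belongs to the same array, and its part in the low value was not tested.

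A second, dimmer Aplp2 probe set read 51.1, 33.7, 37.8 and 55.3 and was left out as dim. It was not low at 1 h. The only Aplp1 probe set was also left out, with intensities of 130, 22.4, 65.8 and 13.7 in the order of the hours, the last of these under the floor. Of all 4969 probe sets left out as dim, 19.4% were at least 2-fold higher at 1 h than the mean of the other arrays, as the Aplp1 probe set was (4.49-fold). Among the 1491 tested probe sets with the highest means the share was 0.335%. Aplp1, a gene known from neurons, therefore has no tested value.

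Psen2 encodes presenilin 2, the member of the list that belongs to gamma-secretase. It read 242, 250.5, 266 and 281 at 1, 2, 4 and 6 h, a mean of 260 ± 17.3 (SD, n = 4) and a range of 1.16-fold. These values rank in the order of the hours, as did those of 2 of the 8 tested member probe sets and of 331 of all 7453 (4.44%). In 0 of the 8 they ran strictly downward (5.98% of all). The slope was 0.043 ± 0.065 (SE) log2 units per hour, with a 95% interval from -0.113 to 0.2 (limma adjusted p = 0.935, 4 arrays). The slope was thus smaller than its standard error. Its identifier also ends in _s_at, with the same limit as that of Aplp2.

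Prnp, the prion protein gene, read 30926 at 1 h and 23840, 25230 and 23327 at 2, 4 and 6 h. The 1 h array was the highest, 1.28-fold above the mean of the others on the log2 scale, and the later 3 lay within 1.08-fold (24132 ± 984, SD, n = 3). Over all 4 arrays the SD was 0.19 on the log2 scale, at the 33.6th percentile of all tested probe sets and the 64.6th of its brightness class. Being highest at 1 h was common, at 35.4% of tested probe sets and 43.5% of the 1491 brightest. The slope was -0.059 ± 0.041 (SE) log2 units per hour and did not pass (limma adjusted p = 0.874, 4 arrays), and it was -0.008 ± 0.032 without the 1 h array (limma adjusted p = 0.999). Quantile normalization narrowed the range from 1.33-fold to 1.2-fold.

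Cst3, the cystatin C gene, was read by a bright and a weaker probe set, both highest at 1 h but by unlike amounts. The bright one read 30254, 27026, 29280 and 24431 at 1, 2, 4 and 6 h (27748 ± 2592, SD, n = 4), a range of 1.24-fold with the lowest value at 6 h and the 1 h value 1.13-fold above the mean of the others on the log2 scale. The weaker one read 2935 at 1 h and 1001, 1069 and 926 later. Its 1 h value was above all others and 2.94-fold above their mean on the log2 scale (1.8% of all tested probe sets were at least 2-fold higher at 1 h in this way). Without the 1 h array its range was 1.15-fold, with a mean of 999 ± 71.1 (SD, n = 3). Against 1 h it was 2-fold or more lower at each later hour, as were 3.45%, 2.74% and 3.65% of all tested probe sets at 2, 4 and 6 h.

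The slopes of both Cst3 probe sets were negative and neither passed in limma. That of the weaker probe set was -0.253 ± 0.105 log2 units per hour (SE, limma adjusted p = 0.874, unadjusted 0.0497), the member with the unadjusted p under 0.05. Without the 1 h array it was -0.028 ± 0.053 (limma unadjusted p = 0.607, adjusted 0.999). That of the bright one was -0.046 ± 0.038 (SE, limma adjusted p = 0.883). The identifier of the weaker one ends in _i_at. Identifiers ending in _i_at or _r_at mark probe sets that hold fewer probes or were chosen under relaxed rules. Of 1054 tested probe sets ending in _i_at, _r_at or _f_at, 23.8% spanned 2-fold between arrays, against 17.3% of 6057 ending in plain _at. Cystatin C is made by astrocytes, microglia and the choroid plexus as well as neurons. The summed intensity of the astrocyte markers (9 of 10 on the table) was 76691, 75194, 81861 and 77401 at 1, 2, 4 and 6 h. That of the microglial markers (10 of 12) was 9389, 10230, 10441 and 9766. The choroid plexus markers (3 of 7) summed to 639, 639, 1614 and 3496, with 2 of 3 tested probe sets lower at 1 h than later and 1 higher. The brightest of them, Ttr, the thyroid hormone carrier, read 225, 444, 1258 and 3009. Ttr was the 1 probe set of all 7453 that passed for a slope (0.741 log2 units per hour, limma adjusted p = 0.0232). At 1 h, 6 of 13 tested astrocyte probe sets and 4 of 10 microglial ones lay above the mean of the other arrays. Among them were Mt3, a metallothionein of astrocytes (26442, 19082, 22070 and 21689), and Ctss, the brightest microglial marker (3025, 2426, 2671 and 2356). Both were highest at 1 h, as Cst3 was, but Mt3 was named after its values were seen. More went the other way, with 7 astrocyte and 6 microglial probe sets lower at 1 h than later on average. The brightest astrocyte marker, Apoe, was lowest at 1 h (26202, 29401, 33547 and 30307). The part of these cells in the Cst3 values was not tested.

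Grn, the progranulin gene, was likewise read by 2 probe sets of unlike behaviour. The brighter one read 628, 637, 654 and 718 at 1, 2, 4 and 6 h (659 ± 40.4, SD, n = 4). These are the other member values that rank in the order of the hours, over a range of 1.14-fold, and the slope of 0.037 ± 0.046 (SE) log2 units per hour did not pass (limma adjusted p = 0.926, 4 arrays). The dimmer one, whose identifier ends in _r_at, read 304, 45.0, 126 and 158 in the same order, a range of 6.76-fold. It was highest at 1 h and lowest at 2 h. The range was 3.51-fold without the 1 h array and 2.41-fold without the 2 h array. Its SD of 1.14 on the log2 scale lay at the 98.6th percentile of all tested probe sets and the 94.4th of its brightness class, where spreads were wide. Its slope was -0.007 ± 0.228 log2 units per hour (SE, limma adjusted p = 0.996), and the sign changed with the scaling of the arrays. Among the same tested probe sets it was 0.453 ± 0.204 without the 1 h array (SE, limma adjusted p = 0.955).

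**Figure D2:**
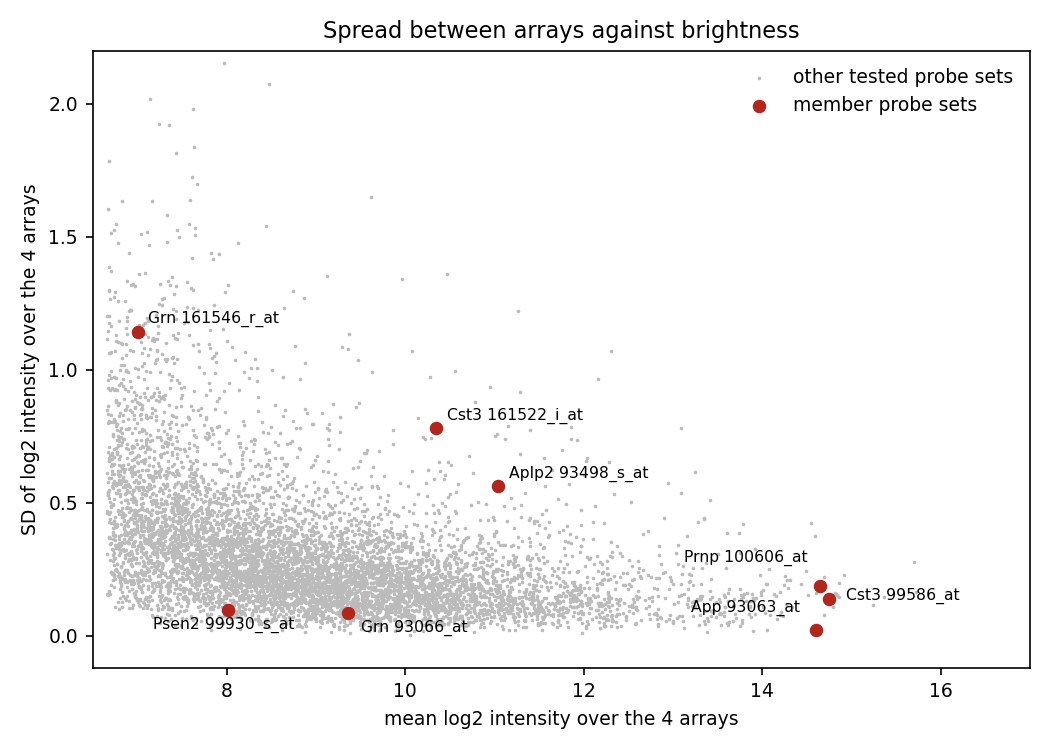
SD of log2 intensity over the 4 arrays against mean log2 intensity, 1 grey point per tested probe set and red points for the 8 tested member probe sets. App (SD 0.02) lies at the lower edge, Prnp (0.19) and the brighter Cst3 probe set (0.14) lie amid the points of like brightness, and the weaker Cst3 (0.78), Aplp2 (0.56) and dimmer Grn (1.14) probe sets lie above most points of like brightness.

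For Cst3 and Grn, the probe sets of 1 gene differed in how far the 1 h array stood from the rest. The difference was 1.39 on the log2 scale for Cst3 and 1.75 for Grn. Of 790 genes with exactly 2 tested probe sets, 152 (19.2%) differed by at least 1 on this scale, and the Cst3 and Grn differences lay at the 90.3rd and 95.7th percentiles. For Aplp2 the difference was 1.43, with the second probe set too dim to be tested. Among the 2, 4 and 6 h arrays the brighter probe set had the narrower range for Aplp2 (1.08-fold against 1.64-fold) and Grn (1.13-fold against 3.51-fold), and the wider one for Cst3 (1.2-fold against 1.15-fold).

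At 2 h and at 4 h, 3 of the 8 tested member probe sets were at least 2-fold from their 1 h value, and 2 were at 6 h. The shares over all tested probe sets were 9.79%, 8.41% and 9.34%. The member counts are the same few probe sets each time: Aplp2 was higher and the weaker Cst3 lower at all 3 hours, and the dimmer Grn lower at 2 h and 4 h. All 3 comparisons share the 1 h array, so they are not independent of each other, and with 1 array per hour they have no test. The median range of the 8 member probe sets was 1.28-fold, against 1.46-fold over all tested probe sets, and 4 of their slopes were positive and 4 negative. These medians are not matched for brightness, and spread fell with it. The median SD on the log2 scale was 0.438 in the dimmest 1491 tested probe sets, 0.156 in the brightest 1491 and 0.161 in the members.

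For the brightest tested probe set of each gene, the nearest profile of another gene was taken by the root mean square difference of log2 values centred over the 4 arrays. It was Dda1 for App (0.0046), Mapre1 for Grn (0.0069), Ruvbl2 for Psen2 (0.0124), Gas1 for Cst3 (0.0144), Srrm1 for Prnp (0.018) and Coro1c for Aplp2 (0.0285). Within 0.1 of App lay 967 of 6733 named probe sets (14.4%), and within 0.1 of Prnp 537 (7.98%). A fixed limit takes in more probe sets around a level profile such as that of App. Within it lay 59 (0.876%) for Aplp2, which was low at 1 h. Its neighbour Coro1c, a coronin that binds actin, likewise read 586, 1289, 1251 and 1296.

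Genes that act with the members were taken as 7 lists. Of 108 listed genes 83 were on the table, and 92 of their probe sets (72 genes) were tested. In limma 0 of the 92 passed for a slope in either direction (lowest adjusted p = 0.874), and 6 had an unadjusted p under 0.05. The array range was at least 2-fold in 11 (12%), against 18.5% of all tested probe sets, and without the 1 h array in 3 (3.26%), against 8.22%. At 1 h, 47 lay below and 45 above the mean of the other arrays.

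Of the secretases and their partners, 5 probe sets were tested and 0 spanned 2-fold. Psenen, a small gamma-secretase subunit, read 483, 472, 554 and 493 at 1, 2, 4 and 6 h, and Aph1a, another subunit, 405, 306, 235 and 313.5. Adam10, the main alpha-secretase of neurons, read 397, 300, 293 and 379 on its brighter probe set. Their ranges were 1.18-fold, 1.72-fold and 1.35-fold. The other tested Adam10 probe set read 152, 245, 202 and 188, lowest at 1 h, with a range of 1.61-fold. Of the adaptors that bind the tail of App and the BRICHOS proteins, 0 of 12 probe sets spanned 2-fold. Itm2c and Itm2b, membrane proteins that bind App, measured 13841 ± 345 and 9274 ± 894 (SD, n = 4). Apbb1 (Fe65), an adaptor of the App tail, read 1999 at 1 h and 3665, 3553 and 3649 later, low in the same array as Aplp2, with a range of 1.03-fold without it.

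Among the genes of amyloid binding and breakdown, 2 of 13 probe sets spanned 2-fold. The lipid carriers Apoe and Clu measured 29864 ± 3021 and 10254 ± 1006 (SD, n = 4). Ide is a protease that degrades amyloid beta and insulin. On its widest-ranging probe set it read 112, 224, 198 and 247 (1.25-fold without the 1 h array). On its other tested probe set it read 204, 157, 175 and 196, highest at 1 h, with a range of 1.3-fold. Of the cathepsins, other cystatins and lysosomal genes, 2 of 17 spanned 2-fold. Lamp1, a lysosomal membrane protein, measured 7263 ± 385 and Ctsb, a cysteine cathepsin that cystatin C inhibits, 5630 ± 463 (SD, n = 4). Ctse, an aspartic protease, read 161, 509, 412 and 459. The progranulin partners had 4 of 11 past 2-fold. Psap (prosaposin), which travels to lysosomes with progranulin, read 4408, 6681, 6715 and 5914 on its brightest probe set. On its dimmest it read 6.6 at 1 h, under the floor, and 245, 172 and 163 later. The other tested Psap probe set read 576, 453, 492 and 365, highest at 1 h, where the brightest and dimmest were lowest. Mmp14, a protease that can cut progranulin, measured 553 ± 83 (SD, n = 4).

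Of the prion protein relatives and partners, 1 of 8 probe sets spanned 2-fold, that of Stip1, a co-chaperone that binds prion protein (176, 487, 395 and 476). Ncam1 and Rpsa, a cell adhesion molecule and the laminin receptor, both of which bind prion protein, measured 3720 ± 397 and 3325 ± 76.8 (SD, n = 4). Of the other neurodegeneration genes, 2 of 26 spanned 2-fold, those of Mapt (tau) and Sod1 (superoxide dismutase). Mapt read 9780 at 1 h and 4434, 3868 and 3716 later on its brightest probe set, and 3447, 3822, 3245 and 3372 on its dimmest. Sod1 read 8866 at 1 h and 3840, 4734 and 4442 later, and was named after its values were seen. Uchl1, a neuronal ubiquitin hydrolase, and Atxn10 measured 6983 ± 680 and 5296 ± 499 (SD, n = 4). The genes of these lists past 2-fold included some that were high at 1 h (Mapt, Sod1) and some that were low there (Ctse, Stip1, the dimmest Psap probe set), as among the members. Without the 1 h array the ranges of these 5 probe sets were 1.19-fold for Mapt, 1.23-fold for Sod1 and 1.24-fold for Ctse. Those of Stip1 and Psap were 1.23-fold and 1.5-fold. In these lists 3 tested probe sets still spanned 2-fold without that array, all of progranulin partners. They were both probe sets of Tnfrsf1a (3.56-fold and 3.99-fold) and a Slpi probe set (2.38-fold). The Tnfrsf1a probe sets did not move together. The one ending in _r_at read 154, 213, 71.1 and 59.9 at 1, 2, 4 and 6 h, highest at 2 h. The other read 201, 59, 235 and 188, lowest at 2 h. The identifier of the Slpi probe set also ends in _r_at. The brighter tested Slpi probe set spanned 1.09-fold without the 1 h array.

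**Figure D3:**
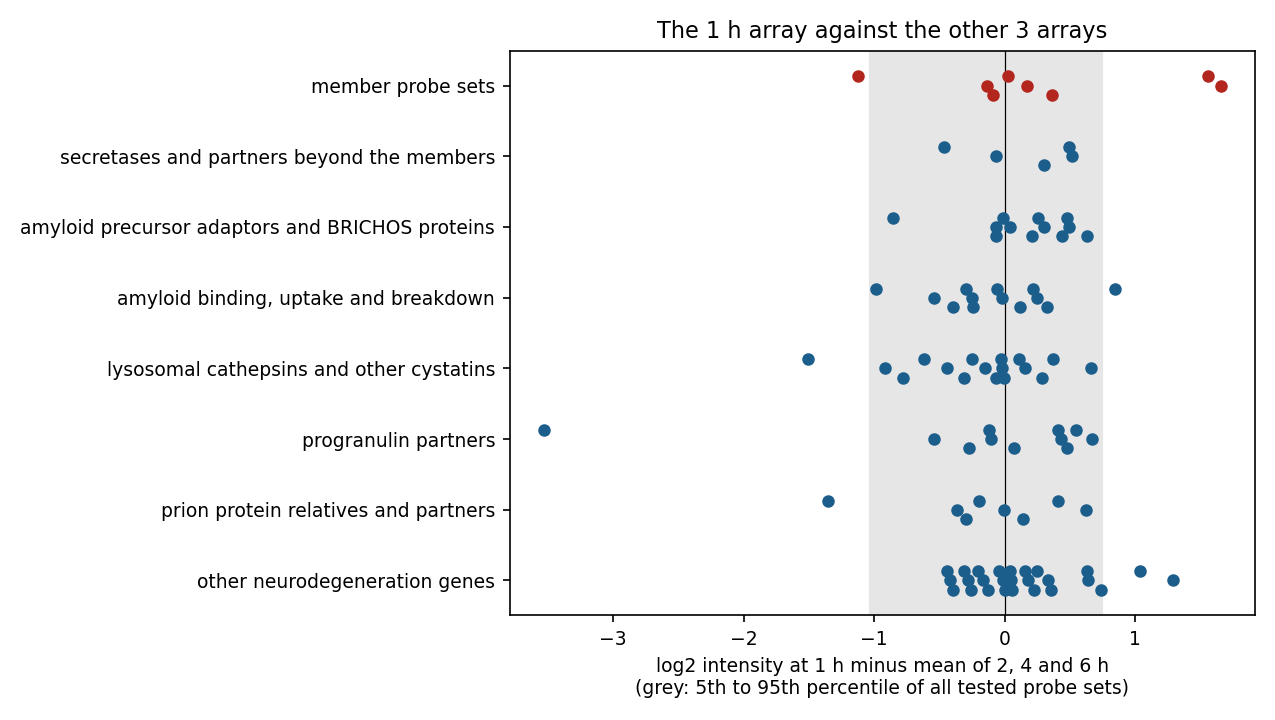
Log2 intensity at 1 h minus the mean of the 2, 4 and 6 h arrays, 1 point per tested probe set, for the members (red) and the 7 lists of related genes (blue), over a grey band from the 5th to the 95th percentile of all tested probe sets (-1.04 to 0.75). Among the members Aplp2 (-1.12) lies below the band, and the weaker Cst3 (1.56) and dimmer Grn (1.66) probe sets lie above it.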

How the data were processed

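The deposited table holds 12488 probe sets in rows (66 of them controls) and the arrays in columns, as intensities that were not log-transformed. The software and scaling the authors used for these intensities were not given in the labels; in the values, the 2%-trimmed mean over the whole table was 500.3 for each of the 4 arrays. The values give no depth, and the number of arrays limits precision. Genes were named from the platform annotation, with symbols updated by Entrez identifier from a GRCm38.p6 table used for names only.

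Intensities were used as deposited, floored at the 10th percentile (16.4), and log2 was taken. Probe sets with a mean at or above the 40th percentile (log2 6.66) were tested. Slopes on the hour were fitted with limma 3.58.1 in R 4.3.3 (eBayes with a trend on intensity, 2 residual degrees of freedom, two-sided, Benjamini-Hochberg over 7453 probe sets at 0.05), a procedure tested on simulated data. Differences between hours have no test. Alternatives were the scaling, a pseudocount for the floor, the filter, each array left out, the log2 of the hour and the variance prior.

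The members, lists and tests were chosen with earlier results of these data known. Named genes are all members, the 2 brightest and the widest-ranging probe set of each list, and those past the threshold. The brightest of each marker list and the nearest profile of each member were also picked by this rule. The brightest oligodendrocyte and endothelial markers were picked in this way but are not printed. Prox1, Mt3, Sod1, Tnfrsf1a, Slpi, the dimmest Mapt probe set and further Psap, Ide, Adam10 and Ctsb probe sets were added after their values were seen.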

Additional observations from a re-analysis of the deposited data

Results flagged for a closer look

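The rule for named genes picked 43 probe sets, which leave out those added after their values were seen. In 6 of the 43, 1 of the 4 arrays lay far from the others for the range of the probe set on the log2 scale. The gap from that array to the nearest took a share of the whole range above Dixon's 95% critical value. It was the 1 h array in all 6. Chance flags about 1 in 20 such groups. Of all 7453 tested probe sets 643 (8.63%) were past this limit, 390 of them through the 1 h array. The 2 shares cannot be set against each other, since some of the 43 were chosen for a wide range. Among the members these were the brighter Aplp2 probe set, low at 1 h with a share of 0.911, and the weaker Cst3 probe set, high at 1 h with 0.876. Among the related genes Apbb1 (0.949), Ctsb (0.935) and the dimmest Psap probe set (0.849) were low at 1 h, as was Coro1c (0.956), which was chosen for its likeness to Aplp2. A high share need not be a large difference: the whole range of this Ctsb probe set was 1.2-fold. The other tested Ctsb probe sets lay above the mean of the later arrays at 1 h, by 0.111 and 0.154 on the log2 scale. Apbb1 and the Psap probe set were chosen as the widest-ranging of their lists.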

How the results depend on the processing

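With each alternative run, 0 member probe sets passed for a slope, and the number with an unadjusted p under 0.05 in limma was between 0 and 3. The 1 call over all probe sets became 0 with no filter on dim probe sets (694 at an unadjusted p under 0.05 in limma) and when the prior variance did not depend on intensity (360). With 1 array left out it was 0 to 1, and it was lost without the 4 h array (169 unadjusted) and without the 6 h array (240 unadjusted). The cause was not tested. The count of member probe sets spanning 2-fold, 3 in all arrays, was 0 to 3 with 1 array left out. It was 0 without the 1 h array, where 7 members were tested, since the dimmer Grn probe set then failed the filter. In an alternative added after the data were seen, the related-gene count, 11 in all arrays, was 3 to 10 with 1 array left out, and 3 without the 1 h array. The slope of App was between -0.004 and 0.01 with 1 array left out. It turned from 0.001 to -0.002 without the 2 h array, to -0.004 without the 6 h array and to -0.001 on the log2 of the hour. That of the dimmer Grn probe set turned from -0.007 to 0.013 with arrays scaled to the same median and to 0.007 after quantile normalization. The other 80 slope comparisons kept their sign and stayed short of the threshold. They leave out the dimmer Grn probe set without the 1 h array, where it failed the filter. Among the probe sets tested in all arrays, its slope without the 1 h array was 0.453, also a change of sign. Slopes of members that a stricter filter left out, and differences from 1 h without the arrays they compare, could not be computed.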
